A study of Saccharomyces cerevisiae with 4 samples.

Results

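The nucleolar ribosome assembly genes of budding yeast were followed in cells whose RNA polymerase II carries an altered C-terminal domain (CTD). The group holds 59 of the 6210 probes of the array table, 1 probe for each gene, chosen by ORF name as factors that process ribosomal RNA or assemble ribosomal subunits in the nucleolus, with genes of chromosome XI left out. All 59 ORFs matched a gene symbol in the RefSeq gene table, and they lie on 12 of the nuclear chromosomes. The measured quantity was the log2 ratio of expression in the 5A mutant over control cells containing the wild-type (WT) CTD. The 5A mutant has 5 alanines inserted between successive pairs of CTD heptad repeats. The mutant was made in the yeast strain Z26 by a plasmid shuffle. A LEU2-linked plasmid brought in the mutated CTD, and the URA3-linked plasmid with the WT gene was removed by selection. The paper describes the control cells as transformed with the WT CTD. It does not say whether they went through the same shuffle. Cultures of both strains were harvested at log phase in YPD at 30 degrees and an optical density of 0.8. The paper reports that the mutant grew far more slowly than the control cells, with much longer doubling times. Equal optical density therefore does not mean equal growth, and strain and growth rate were not varied separately. RNA replicates of the 5A mutant (4) and the WT control (4) were hybridized on 4 spotted oligonucleotide arrays, the 5A mutant labelled with Cy5 and the WT control with Cy3 on each. That direction is the likely one, since the labels give the dyes but the values do not state which channel was divided by which. No array had the dyes reversed, so the part of a ratio that comes from the dyes and the part that comes from expression cannot be told apart. The labels do not say if each replicate was a culture of its own, so p-values measure the spread between these arrays, which may be technical.

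Ribosomes are assembled in the nucleolus on a long precursor RNA made by RNA polymerase I. Small nucleolar ribonucleoproteins modify the precursor, box C/D particles by ribose methylation and H/ACA particles by pseudouridylation. The U3 particle and the UtpA, UtpB and Mpp10 complexes build the early precursor of the small subunit, while other factors, among them the Nop7-Erb1-Ytm1 and Noc complexes, build that of the large subunit. The genes for these factors are transcribed by RNA polymerase II, and in yeast they are known for rising and falling together with growth and nutrient supply. How much of their ratios goes with the slower growth of the mutant was not tested.

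The 4 arrays were not alike, and array 2 stood apart. Across the 5955 probes with a value on every array, Pearson's r was 0.855 to 0.878 for pairs among arrays 1, 3 and 4, but 0.665 to 0.694 for pairs with array 2. Probes of 1 array are not independent replicates. Among the 58 assembly genes measured on all arrays the same correlations were 0.797 to 0.822 and 0.514 to 0.665. The median log2 ratio over all probes was between -0.01 and -0.00340 on every array. Each assembly gene was tested in a limma fit of 6157 probes with values on at least 2 arrays, with Benjamini-Hochberg adjustment over all of them and a threshold of 0.05. The number of arrays limits the precision, and the 95% interval of a mean from this fit had a median half-width of 0.38 among the assembly genes.

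In the 5A mutant most assembly genes stayed within 2-fold of the WT level. The limma fit called 15 of the 59, of which 12 fell and 3 rose, and for 44 no difference from 0 was called. RNA came from whole cultures, in which fewer expressing cells and less RNA per cell cannot be told apart. Among all probes fitted 40.5% were called, 20.7% as lower and 19.8% as higher, against 20.3% and 5.08% of the assembly genes. The group leaves out chromosome XI, where 76.9% of the 286 probes were called higher. Over the 5245 probes assigned to other chromosomes, 20.6% were called lower and 16.8% higher. The share of assembly genes that fell was thus close to both backgrounds, and the share that rose was below both. All 15 called genes had the same sign on each array. Of the 58 genes with 4 values, 25 (43.1%) kept 1 sign throughout, as did 54.8% of all probes with 4 values. The median of the mean log2 ratios was -0.10, the quartiles were -0.45 and 0.23, and the median over all probes was -0.01.

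By the fold cut-offs of 2 and 0.5, 55 of the 59 genes were within 2-fold. YTM1, 1 of the 59, was past 2-fold upward, as were 5.75% of all probes and 185 of the 5245 on chromosomes other than XI. NUG1, RRP9 and NOP4, 3 of the 59, were past it downward, as were 8.66% of all probes and 405 of those 5245. YTM1 (YOR272W) encodes a WD-repeat protein of the large subunit precursor. Its log2 ratios on arrays 1 to 4 were 1.55, 1.68, 1.90 and 2.10, with a mean of 1.81 ± 0.24 (SD, n = 4, adjusted p = 0.000381 in limma), a ratio of 3.50. No other assembly gene reached 1.55 on any array.

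NUG1 (YER006W) encodes a GTPase needed for export of the large subunit. It was at -1.13, -1.09, -1.02 and -1.39, a mean of -1.16 ± 0.16 (SD, n = 4, adjusted p = 0.00115 in limma) and the lowest of the group. Each of its 4 ratios was below 0.5. RRP9 (YPR137W) encodes the protein that marks the U3 particle among box C/D particles. Its log2 ratios of -1.33, -1.10, -1.27 and -0.86 averaged -1.14 ± 0.21 (SD, n = 4, adjusted p = 0.00149 in limma), with array 4 the array nearest to 0. NOP4 (YPL043W), an RNA-binding protein of the large subunit pathway, was at -1.07, -1.50, -0.81 and -0.94, a mean of -1.08 ± 0.30 (SD, n = 4, adjusted p = 0.00248 in limma). Here array 2 was lowest, and arrays 3 and 4 did not pass 2-fold. These 4 genes remained called whichever array was left out.

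**Figure D1:**
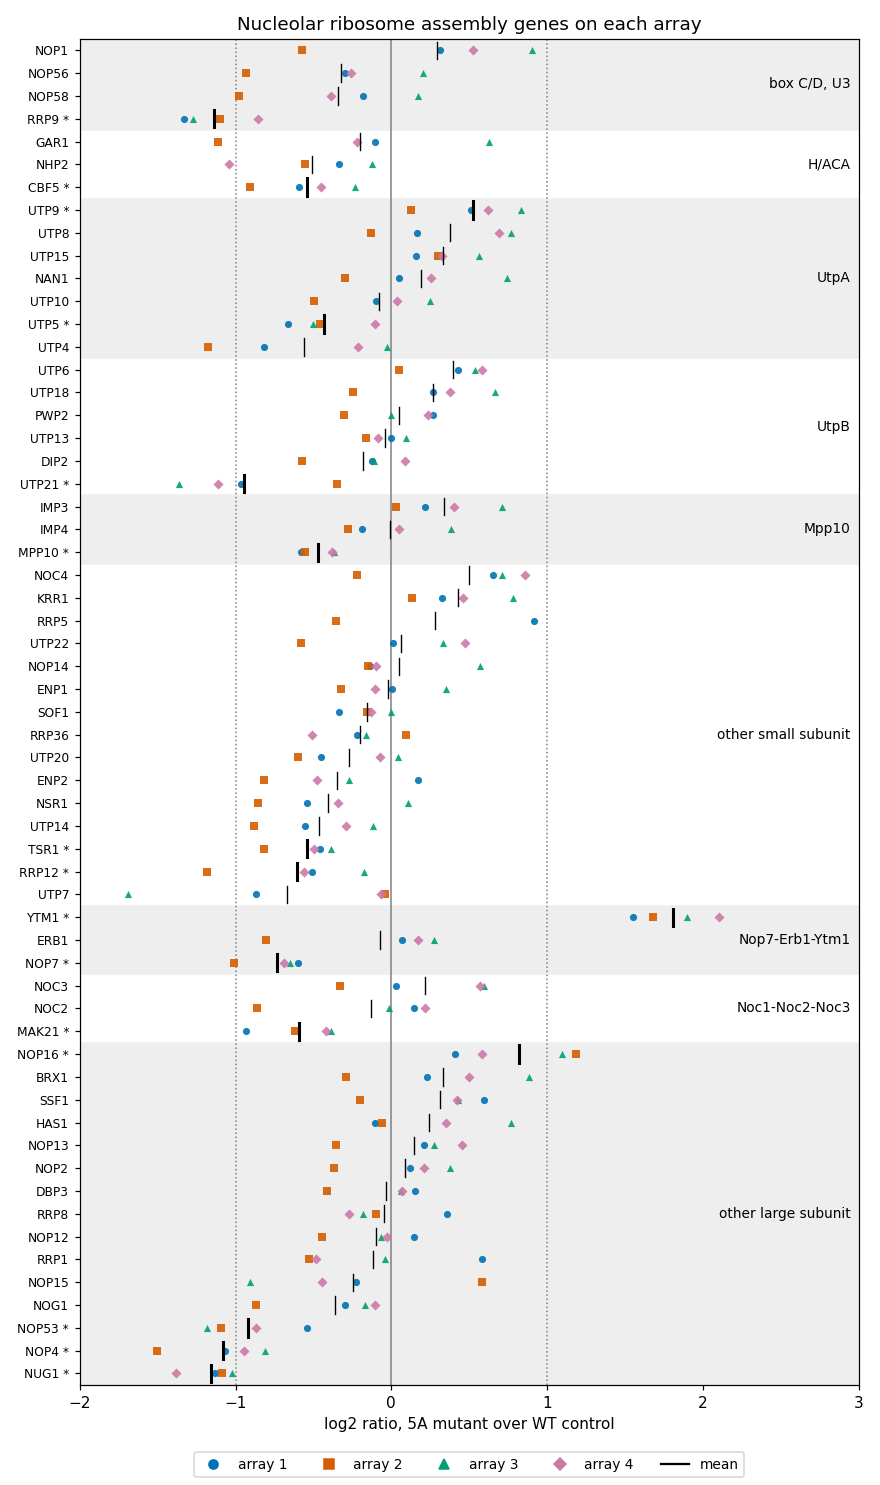
Log2 ratio of the 5A mutant over the WT control for each of the 59 assembly genes, grouped by role; symbols are the 4 arrays, vertical bars the means, bold bars and asterisks the genes called by limma, and dotted lines 2-fold. YTM1 stands apart at a mean of 1.81, NUG1, RRP9 and NOP4 lie below -1, and the square of array 2 is the leftmost in 41 of 58 rows with 4 values.

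Of the proteins shared by all box C/D particles, NOP1, NOP56 and NOP58 belong to the group, and none of these 3 was called. NOP1 (YDL014W), the fibrillarin methyltransferase, had log2 ratios of 0.31, -0.58, 0.90 and 0.53, with a mean of 0.29 ± 0.63 (SD, n = 4, adjusted p = 0.353 in limma). NOP56 (YLR197W) was at -0.30, -0.93, 0.20 and -0.26, and NOP58 (YOR310C) at -0.18, -0.98, 0.17 and -0.39. Their means, -0.32 ± 0.46 and -0.34 ± 0.48 (SD, n = 4), were not called (limma adjusted p = 0.215 and 0.199). NOP56 and NOP58, the paired scaffold proteins of these particles, were both highest on array 3 and lowest on array 2. RRP9 was lowest on array 1 instead, and its values overlapped those of NOP56 and NOP58 only through their array 2. SNU13, the shared protein that binds the box C/D RNA and is counted here with the further assembly factors, rose, at 0.97, 0.88, 1.34 and 0.88 (mean 1.02 ± 0.22, SD, n = 4, adjusted p = 0.00211 in limma). SNU13 was picked out after its values were seen, and it was called whichever array was left out.

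All 3 measured proteins of the H/ACA particles had means below 0, as did 37 of the 59 assembly genes and 3102 of the 6157 probes fitted. CBF5 (YLR175W), the pseudouridine synthase, fell, with log2 ratios of -0.59, -0.91, -0.23 and -0.45, which averaged -0.54 ± 0.28 (SD, n = 4, adjusted p = 0.0265 in limma). The call did not hold without array 1 or 4 (limma adjusted p = 0.101 and 0.0809). NHP2 (YDL208W) was at -0.33, -0.55, -0.12 and -1.04, a mean of -0.51 ± 0.39 (SD, n = 4) just outside the threshold (adjusted p = 0.0529 in limma). GAR1 (YHR089C) gave the widest spread of the 3, at -0.10, -1.11, 0.63 and -0.22, with a mean of -0.20 ± 0.71 (SD, n = 4, adjusted p = 0.556 in limma). Its 95% interval, -0.82 to 0.41, covers the means of both CBF5 and NHP2. Without array 2 the mean of GAR1 was 0.10.

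In UtpA, the complex that first binds the 5′ end of the precursor, subunits lay on both sides of 0. UTP9 (YHR196W) rose, with log2 ratios of 0.51, 0.13, 0.84 and 0.62, which averaged 0.52 ± 0.30 (SD, n = 4, adjusted p = 0.0322 in limma), and lost its call without array 1, 3 or 4 (limma adjusted p = 0.107, 0.127 and 0.122). UTP5 (YDR398W) fell, at -0.66, -0.46, -0.50 and -0.11, a mean of -0.43 ± 0.23 (SD, n = 4, adjusted p = 0.0468 in limma), and was not called with any single array left out (limma adjusted p between 0.0556 and 0.183). Every value of UTP9 was above 0 and every value of UTP5 below it. These are the called subunits of the complex, in opposite directions, so that their ratios did not overlap is not a separate result. UTP8 (YGR128C), at 0.17, -0.13, 0.77 and 0.69 (mean 0.37), and UTP15 (YMR093W), at 0.16, 0.30, 0.56 and 0.32 (mean 0.33), were not called. UTP4 (YDR324C) varied most in this complex, at -0.82, -1.18, -0.03 and -0.21 (mean -0.56 ± 0.53, SD, n = 4, adjusted p = 0.0706 in limma). NAN1 and UTP10 had means of 0.19 and -0.08.

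In UtpB 1 of 6 subunits was called. UTP21 (YLR409C), a WD-repeat subunit, fell, with log2 ratios of -0.97, -0.35, -1.36 and -1.11, which averaged -0.95 ± 0.43 (SD, n = 4, adjusted p = 0.00743 in limma). Here array 2 was the array nearest to 0, and without it the mean was -1.15. The other 5 subunits, UTP6, UTP18, PWP2, UTP13 and DIP2, had means from -0.18 to 0.40. UTP6 (YDR449C) was the highest of them, at 0.43, 0.05, 0.53 and 0.58 (adjusted p = 0.0617 in limma). The values of UTP21 on arrays 1, 3 and 4 lay below every value of the other 5 subunits.

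MPP10 (YJR002W), the scaffold of the Mpp10 complex, fell by a small amount that varied little, at -0.58, -0.55, -0.37 and -0.38 with a mean of -0.47 ± 0.11 (SD, n = 4, adjusted p = 0.0231 in limma). Its call was lost without array 1, 3 or 4 (limma adjusted p = 0.105, 0.0600 and 0.0809). Its partner IMP3 (YHR148W) was at 0.22, 0.03, 0.71 and 0.40 with a mean of 0.34 ± 0.29 (SD, n = 4, adjusted p = 0.115 in limma). The ratios of MPP10 and IMP3 were on opposite sides of 0 on each array. IMP4 (YNL075W), the third protein of this complex, was at -0.19, -0.28, 0.38 and 0.05, with a mean of -0.01 (adjusted p = 0.967 in limma).

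Of the 15 other factors of the small subunit, 2 fell and none rose at the threshold. RRP12 (YPL012W), a repeat protein that accompanies subunits out of the nucleus, was at -0.51, -1.18, -0.17 and -0.56 with a mean of -0.61 ± 0.42 (SD, n = 4, adjusted p = 0.0350 in limma). TSR1 (YDL060W), a late factor that resembles a GTPase, was at -0.46, -0.82, -0.39 and -0.50 with a mean of -0.54 ± 0.19 (SD, n = 4, adjusted p = 0.0184 in limma). Both were lowest on array 2 and were below 0 on each array, and both lost their call without array 1 or 4, with limma adjusted p between 0.0651 and 0.100. UTP7 (YER082C) was at -0.87 and -1.69 on arrays 1 and 3 but at -0.04 and -0.07 on arrays 2 and 4, so that its mean of -0.67 ± 0.78 (SD, n = 4) was not called (adjusted p = 0.0979 in limma). NOC4 (YPR144C), the partner of NOP14, was at 0.65, -0.22, 0.71 and 0.86, with a mean of 0.50 (adjusted p = 0.0830 in limma), and KRR1 (YCL059C), a KH-domain protein, at 0.33, 0.13, 0.78 and 0.46, with a mean of 0.43 (adjusted p = 0.0565 in limma). The nucleolin-like NSR1 (YGR159C) gave -0.54, -0.86, 0.11 and -0.34, a mean of -0.41 ± 0.40 (SD, n = 4, adjusted p = 0.106 in limma). RRP5 (YMR229C), which acts on both subunits, had values on arrays 1 and 2 alone, 0.92 and -0.35, and its 95% interval of -0.60 to 1.16 spans most of the group. The remaining 8 genes of this class were not called and had means from -0.46 to 0.06.

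The 3 genes of the Nop7-Erb1-Ytm1 complex, which is needed to process the large subunit precursor, had 3 different outcomes. Beside YTM1, which rose, NOP7 (YGR103W) fell, with log2 ratios of -0.60, -1.01, -0.65 and -0.69, which averaged -0.74 ± 0.19 (SD, n = 4, adjusted p = 0.00580 in limma). ERB1 (YMR049C) was at 0.07, -0.81, 0.27 and 0.17, a mean of -0.07 ± 0.50 (SD, n = 4, adjusted p = 0.782 in limma). The values of YTM1 lay above all those of the other 2 genes, and those of NOP7 and ERB1 overlapped only through array 2. Of the Noc proteins, MAK21 (YDR060W), also called Noc1, fell, at -0.94, -0.62, -0.39 and -0.42 with a mean of -0.59 ± 0.25 (SD, n = 4, adjusted p = 0.0172 in limma). It lost its call without array 1 or 4 (limma adjusted p = 0.0856 and 0.0508). NOC2 (YOR206W), the protein that pairs with it, was at 0.15, -0.86, -0.02 and 0.21 (mean -0.13, adjusted p = 0.626 in limma), and NOC3 (YLR002C) at 0.03, -0.33, 0.60 and 0.57 (mean 0.22, adjusted p = 0.385 in limma).

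Among the 15 other factors of the large subunit, NUG1, NOP4 and NOP53 (YPL146C) fell and NOP16 (YER002W) rose. NOP53 was at -0.54, -1.10, -1.18 and -0.87, with a mean of -0.92 ± 0.29 (SD, n = 4, adjusted p = 0.00401 in limma), close to the 2-fold cut-off and past it on arrays 2 and 3. NOP16 was at 0.41, 1.18, 1.10 and 0.58, with a mean of 0.82 ± 0.38 (SD, n = 4, adjusted p = 0.0100 in limma). Array 2 gave the highest ratio for NOP16, unlike for most of the group. BRX1 (YOL077C), at 0.23, -0.29, 0.89 and 0.50, was not called (mean 0.33, adjusted p = 0.223 in limma), and the means of the other 10 genes of this class lay between -0.36 and 0.31. Small and large subunit factors had similar medians, -0.08 over 35 genes and -0.07 over 21, and 7 of each were called, 20.0% of the small and 33.3% of the large subunit factors, against 40.5% of all probes. On chromosomes other than XI, 37.4% of the probes were called. The difference between the small and large subunit shares was not tested. The 8 genes called in the fit of 4 arrays and in each fit with 1 array left out were YTM1, NOP16, NUG1, RRP9, NOP4, UTP21, NOP53 and NOP7.

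Most assembly genes were lower on array 2 than on the other arrays. The median log2 ratio of the group was -0.10, -0.41, 0.08 and -0.08 on arrays 1 to 4, and 50 of 59 genes were below 0 on array 2, against 27 of 58 on array 3. Of the 58 genes with 4 values, 41 (70.7%) had their lowest ratio on array 2, where 32.2% of all probes did, and 34 (58.6%) had their highest on array 3, where 26.0% of all probes did. The lowest ratio fell on array 2 in most members of every class, with 9 of the 15 other large subunit factors and 5 of the 6 UtpB subunits at the extremes. Without array 2 the group's median was 0.02. The limma fit then called 12 of 58 genes higher (20.7%, against 25.2% of all probes) and 13 lower (22.4%, against 26.1%). Over the 5210 probes of chromosomes other than XI in this fit, 22.5% were called higher and 25.8% lower. All 3 genes that rose and 11 of the 12 that fell were called again. The genes called higher without array 2 and not with it were NOP1, NOC4, KRR1, UTP6, UTP8, UTP18, IMP3, SSF1 and BRX1, at means of 0.44 to 0.74. NOP15 and UTP7 were added to those that fell, at -0.53 and -0.88. The cause of the difference of array 2 was not tested.

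**Figure D2:**
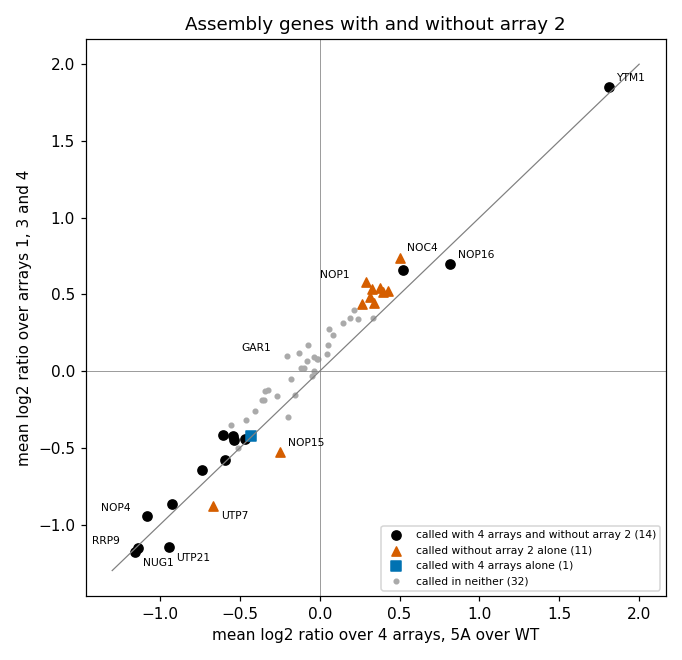
Mean log2 ratio of the 58 assembly genes with 4 values, over all arrays (horizontal axis) and over arrays 1, 3 and 4 (vertical axis); the diagonal marks equal means and symbols show in which fit limma called the gene. Most points lie above the diagonal, and 9 of the 11 genes called without array 2 alone are on the positive side.

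Other lists of the same pathway were set beside the assembly genes. Of 86 further assembly factors, 16 rose (18.6%, against 19.8% of all probes) and 10 fell (11.6%, against 20.7%), with a median log2 ratio of 0.15. In this list 8 genes lie on chromosome XI, where the median over all probes was 0.90, against -0.03 on the other chromosomes, and without them 11 of 78 rose and 9 fell, with a median of 0.13. Highest was UTP30, a gene of chromosome XI, at 2.34, 2.02, 2.07 and 2.60 with a mean of 2.26 ± 0.27 (SD, n = 4, adjusted p = 0.000166 in limma) and 1.35 after the chromosome was centred on its median. NSA1, a factor of the large subunit precursor, was the lowest, at -2.29, -0.71, -1.78 and -2.12 with a mean of -1.73 ± 0.71 (SD, n = 4, adjusted p = 0.00287 in limma). With arrays 1 to 4 left out in turn, the number that rose was 9, 26, 7 and 7, and the number that fell was 5, 9, 7 and 6. Without array 2 these were 30.2% and 10.5%, against 25.2% and 26.1% of all probes.

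Of the genes for RNA polymerase I and its initiation factors, 1 of 9 (11.1%) and 1 of 8 (12.5%) were called, both higher, where 40.5% of all probes were called. Of the 9 polymerase I subunits, RPC19, which RNA polymerase III shares, rose, at 0.30, 0.40, 0.98 and 0.60 with a mean of 0.57 ± 0.30 (SD, n = 4, adjusted p = 0.0245 in limma), and lost its call without array 1, 3 or 4. Without array 2 the subunits called higher numbered 2 (22.2%, against 25.2% of all probes). RPA12 was the lowest, with a mean of -0.29 (adjusted p = 0.232 in limma). Of the 8 initiation factors RRN3, the factor that brings the polymerase to its promoter, rose by 1.63 ± 0.10 (SD, n = 4, adjusted p = 0.000317 in limma). Like UTP30 it is a gene of chromosome XI, and 0.72 of this remained after that chromosome was centred on its median. RRN10 was the lowest, with a mean of -0.28 (adjusted p = 0.354 in limma). Without array 2 it was called lower, at -0.58 (adjusted p = 0.00894 in limma). It was then 1 of 8 initiation factors (12.5%), against 26.1% of all probes called lower.

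In the nuclear exosome, which trims precursor RNA, 2 of 13 genes rose (15.4%, against 19.8% of all probes) and 2 fell (15.4%, against 20.7%). With arrays 1 to 4 left out in turn, 1, 4, 1 and 1 rose and 1, 2, 1 and 1 fell. Without array 2 the shares were 30.8% and 15.4%, against 25.2% and 26.1% of all probes. RRP6, its nuclear exonuclease, fell, at -1.02, -0.83, -1.34 and -1.10 with a mean of -1.07 ± 0.21 (SD, n = 4, adjusted p = 0.00177 in limma), and RRP40, a subunit of its cap, rose by 0.65 ± 0.19 (SD, n = 4, adjusted p = 0.00976 in limma). Both remained called with any 1 array left out.

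The cytosolic ribosomal protein genes stood higher than the assembly genes. Of 125, 61 rose (48.8%, against 19.8% of all probes) and 1 fell (0.8%, against 20.7%), with a median log2 ratio of 0.60. Of the 59 assembly genes 3 rose and 12 fell, with a median of -0.10. Without the 4 ribosomal protein genes of chromosome XI, 57 of 121 rose and 1 fell, with a median of 0.59. Many ribosomal protein genes have near-identical copies, whose probes may share signal. The highest was RPL17A, a gene of chromosome XI, at a mean of 1.80 ± 0.64 (SD, n = 4, adjusted p = 0.00192 in limma) and 0.89 after centring. RPL43A, measured on arrays 1 and 2 alone, was the lowest, at -0.99 (adjusted p = 0.0175 in limma). Array 2 was the lowest array here too, for 118 of 123 genes with 4 values. The list's median was 0.85, -0.08, 1.04 and 0.74 on arrays 1 to 4. The distance between the medians of the ribosomal protein genes and of the assembly genes was therefore present on every array, although array 2 placed both lower. The ribosomal protein genes that rose numbered 19 without array 1, 111 without array 2, 21 without array 3 and 26 without array 4. Without array 2 this was 90.2% of 123 genes, against 25.2% of all probes. The share of all probes was not counted without array 1, 3 or 4.

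**Figure D3:**
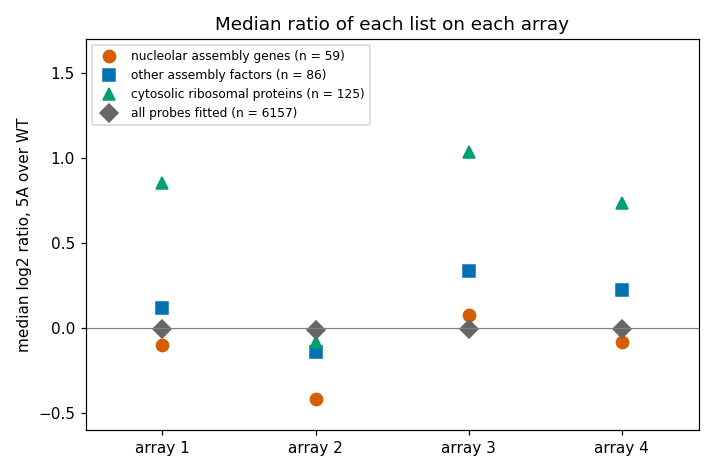
Median log2 ratio of the 5A mutant over the WT control on each array, for the assembly genes, further assembly factors, cytosolic ribosomal protein genes and all probes fitted. All probes stay near 0, while the other 3 lists have their lowest median on array 2, at -0.41, -0.14 and -0.08.

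Of 14 regulators of ribosome synthesis, 4 rose and none fell at the threshold, with a median of 0.16, where 19.8% and 20.7% of all probes were called higher and lower. TOR1 and TOR2 encode the growth-controlling TOR kinases. TOR1 rose by 0.66 ± 0.27 (SD, n = 4, adjusted p = 0.0129 in limma) but lost the call if array 1 or 3 was omitted (limma adjusted p = 0.0570 and 0.0540), and TOR2 by 0.97 ± 0.17 (SD, n = 4, adjusted p = 0.00206 in limma). TOR2 is on chromosome XI, and after centring it stood at 0.06 and lost its call (adjusted p = 0.711 in limma). RIM15, a kinase of the nutrient-limited state, rose by 0.80 ± 0.25 (SD, n = 4, adjusted p = 0.00553 in limma) and kept its call whichever array was left out. IFH1, a coactivator of ribosomal protein genes, rose by 0.46 ± 0.17 (SD, n = 4, adjusted p = 0.0292 in limma), and lost its call without array 1, 3 or 4 (limma adjusted p = 0.105, 0.0519 and 0.111), whereas FHL1, which recruits it, was at -0.25, -0.34, -0.40 and -0.47 and was just outside the threshold (mean -0.37 ± 0.09, SD, n = 4, adjusted p = 0.0503 in limma). TOD6 and DOT6, repressors that bind upstream of assembly genes, were at 0.32 and -0.09, and STB3, a repressor of the same genes, at 0.07, none of them called. SFP1, an activator of both classes of genes, had a mean of -0.06 ± 0.25 (SD, n = 4, adjusted p = 0.752 in limma). SCH9, a kinase below TOR, was at 0.13, RAP1 at 0.12, ABF1 at 0.19 (-0.72 after its chromosome XI was centred), HMO1 at -0.20 and CRF1 at 0.40. None of these was called in the fit of 4 arrays without centring. Without array 2, 5 regulators were called higher (35.7%, against 25.2% of all probes), among them CRF1 (adjusted p = 0.0110 in limma). FHL1 was then called lower (adjusted p = 0.0445 in limma), the 1 regulator to fall (7.14%, against 26.1% of all probes).

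**Figure D4:**
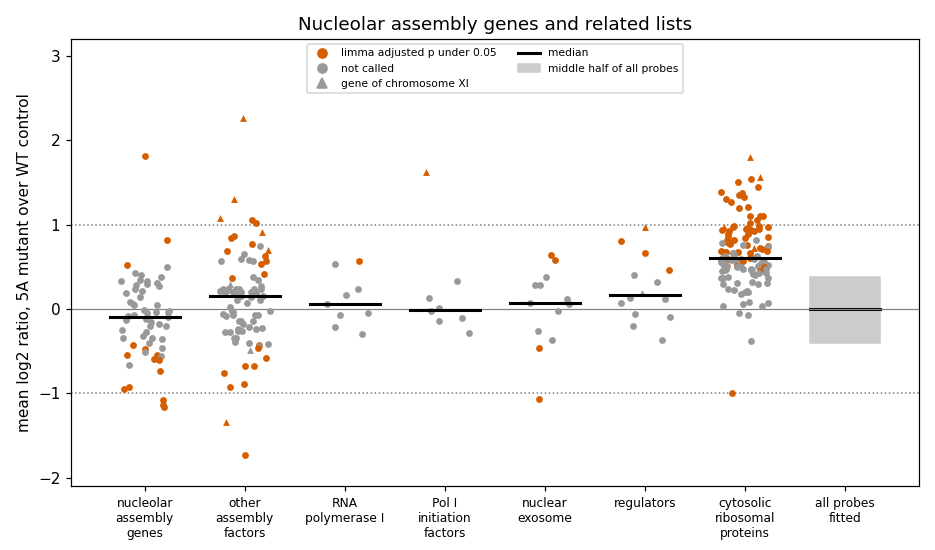
Mean log2 ratio of the 5A mutant over the WT control for each gene of the assembly group and 6 related lists; orange marks a limma adjusted p under 0.05, triangles genes of chromosome XI, black lines medians, dotted lines 2-fold, and the grey box the quartiles of all 6157 probes. The assembly genes centre at -0.10 and the ribosomal protein genes at 0.60.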

How the data were processed

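The authors scanned the arrays with a GenePix scanner, normalized them on the BASE server at Duke, and the table they deposited holds ratios read here as log2, for 6022 to 6177 of 6210 probes on each array. Background correction, normalization method, log base and direction are not given in the sources used here. Base 2 and the likely direction, 5A over WT, were taken from the labels' dyes and from the numbers of probes with 4 values at or above 1 (325) and at or below -1 (493), read with the study's fold cut-offs. These 2 numbers equal those of the genes that the paper reports as up-regulated and down-regulated in the 5A mutant. Dim or saturated spots could not be identified, as only ratios were used.

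For probes with at least 2 values, the deposited ratios entered a limma model of the mean (version 3.58.1 in R 4.3.3, with lmFit, eBayes and Benjamini-Hochberg adjustment). The fit was tested on simulated data. Counts and figures used Python 3.11.15 with pandas 2.3.3 and matplotlib 3.10.9. The members and lists were chosen with earlier results of these data known. Named genes were 17 core particle genes, the 10 highest and 10 lowest members, members without 4 values, the highest and lowest gene of each other list, and all regulators. Other members were given where a class or a change of call required it. Alternatives were arrays centred or brought to a common spread, values on at least 3 or all 4 arrays, robust eBayes, array weights, chromosomes centred on their median, the median over arrays, and each array left out. A comparison of promoter motifs was not run, since no sequence was used here.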

Additional observations from a re-analysis of the deposited data

Results flagged for a closer look

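The assembly genes with 4 ratios, the other named genes and the group's median per array, 82 items in all, were examined for an array far from the rest. Such an array was found for 4 of the 82, a share close to the 1 in 20 that chance gives. NOP14, which builds the early small subunit precursor, was at 0.57 on array 3 and between -0.15 and -0.10 on the others. The helicase gene DBP3 was at -0.41 on array 2 and between 0.06 and 0.15 on the others. RRN10 was at 0.62 on array 2 and between -0.65 and -0.48 on the others. RPL17A was at 0.85 on array 2 and between 2.06 and 2.22 on the others. Array 2 was the distant array in 3 of the 4, among them RRN10 and RPL17A, which are not in the assembly group. With the number flagged close to that of chance, nothing about array 2 is concluded from these items.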

How the results depend on the processing

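The number of assembly genes called higher was 3, and was 13 with array weights, which gave array 2 a weight of 0.351, and 2 to 12 with 1 array left out, 12 being without array 2. The number called lower was 12 and became 6 to 13 with 1 array left out, 6 being without array 1 or array 4. Their 2-fold counts, 1 upward and 3 downward, were 1 and 3 to 4 with 1 array left out. The median of the group, -0.10, lay between -0.18 and 0.02 with 1 array left out and between -0.12 and -0.03 under the other alternatives. With array weights 25 further assembly factors and 109 ribosomal protein genes were called higher, against 16 and 61. The shares of all probes called were counted only for the unweighted fit of 4 arrays and the fit without array 2. Under the other settings these numbers therefore cannot be set against all probes, whose calls may have changed as well. For 57 named genes, leaving out 1 array ended a call for 8 and made one for 11. The other alternatives made a call for 13 genes, ended that of TOR2 with chromosomes centred, and turned ABF1 of chromosome XI to -0.72 relative to its chromosome, where it was called. The cause of these changes was not tested. No paired analysis was possible because each array already holds both strains and the arrays form 1 group. Low signal over background could not be examined from ratios alone.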

Other observations

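No assembly gene had another of the 59 as its immediate neighbour among genes with a fitted probe in the RefSeq gene order, and 6 had one of the further assembly factors beside them. UTP9, which rose, neighbours RIX1, a gene of the large subunit pathway that also rose, at 1.15, 0.01, 1.04 and 1.16 with a mean of 0.84 ± 0.56 (SD, n = 4, adjusted p = 0.0208 in limma). NOP56, which was not called, neighbours PWP1, which fell by 0.89 ± 0.26 (SD, n = 4, adjusted p = 0.00422 in limma). NOC4 neighbours RRP15, which fell by 0.47 ± 0.30 (SD, n = 4, adjusted p = 0.0472 in limma), and UTP13 neighbours RSA3, which rose by 0.53 ± 0.31 (SD, n = 4, adjusted p = 0.0329 in limma). Among these neighbours PWP1 kept its call whichever array was left out, RIX1 and RSA3 lost theirs without array 1, 3 or 4 (limma adjusted p from 0.0807 to 0.128), and RRP15 lost its call with any array left out (limma adjusted p from 0.0694 to 0.203). SSF1 neighbours RRP3 and GAR1 neighbours RPF1, and none of these 4 genes was called.

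The genes beside the 4 assembly genes past 2-fold were looked up after their values had been seen. YTM1 lies between FSF1, at 0.35 ± 0.44, and TPO4, at 0.03 ± 0.15 (SD, n = 4), neither of them called. RRP9 lies between CTF4, at -0.16 ± 0.26, and MEP3, at 0.11 ± 0.16 (SD, n = 4), also not called. NUG1 has PAC2, a tubulin folding cofactor, on 1 side, at -1.25, -0.16, -1.53 and -1.40 with a mean of -1.09 ± 0.63 (SD, n = 4, adjusted p = 0.0115 in limma). PAC2 lost its call if array 1 or 3 was omitted (limma adjusted p = 0.0542 and 0.0509), and YND1 on the other side, at -0.38 ± 0.23 (SD, n = 4), was not called. NOP4 has SSN3, the Mediator kinase gene, on 1 side, at -0.25, -0.76, -1.44 and -0.68 with a mean of -0.78 ± 0.49 (SD, n = 4, adjusted p = 0.0200 in limma). SSN3 lost its call if array 3 or 4 was omitted (limma adjusted p = 0.0631 and 0.0602), and VPS16 on the other side, at -0.18 ± 0.38 (SD, n = 4), was not called.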
